A study of Rattus norvegicus with 91 samples.

Results

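Liver RNA labelled 48 h after methylprednisolone was compared with liver RNA labelled time 0 in the longer of a pair of time courses from Wistar rats. The comparison took in 8 of the series' 91 arrays, 4 titled 48 h and 4 titled control, and all 15866 probe sets of the array design that are not manufacturer's controls. The labels give every array, controls included, 50 mg/kg of methylprednisolone, a synthetic glucocorticoid, and total RNA from liver. They state no route, schedule, vehicle, sex, age or time of day. They also do not say whether replicate arrays came from separate rats, so errors and p-values reflect array-to-array spread, and that spread could be technical alone. The array titled 48 h replicate 1 is described in the wording of the shorter course, and its title decided its group. Signals are deposited intensities on a linear scale. Changes are differences of mean log2(signal + 32) ± standard error, 48 h minus control, over 4 arrays against 4. The added constant makes the changes of dim genes smaller than the ratios of their signals. The number of arrays limits the precision of every value.

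Glucocorticoids cross the cell membrane and bind the glucocorticoid receptor, the product of Nr3c1, which moves to the nucleus and raises or lowers transcription of its target genes. In the liver the hormone is known for turning amino acids into glucose. It induces aminotransferases, enzymes of amino acid breakdown and gluconeogenic enzymes, and it restrains inflammatory and immune genes.

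The arrays were similar on most technical measures. All arrays of the course had been scaled to a common trimmed mean. The mean correlation of an array with the others was 0.921 to 0.946 at 48 h and 0.922 to 0.938 in controls, and the 3′ to 5′ ratio of Gapdh on the log2 scale was 0.20 to 0.36 at 48 h and -0.13 to 0.36 in controls. Signals of the bacterial spike-in controls were high on 48 h replicates 3 and 4 and on control replicate 4, and low on the other 5 arrays. In the longer course they were high on replicate 4 of all 11 groups, on 0 of 11 arrays numbered 1, and on 4 of the 33 arrays numbered 1 to 3. The same pair of 48 h arrays carried the highest summed signals of 9 pancreas acinar genes. Those sums were 1012, 799, 4546 and 4530.0 at 48 h, against 645, 893, 1916 and 522 in controls. All 9 acinar genes, led by the amylase gene Amy2a3, had changes above 0, as did 4965 of all 10411 genes, and 0 passed limma's adjusted threshold. An unadjusted p under 0.05 was reached by 2 of the 9, beside 14.2% of all probe sets. Erythroid marker sums were 272 to 1999 at 48 h and 433 to 3775 in controls. Their part in the results below was not tested. Hepatocyte markers such as Alb, Ttr and Apoa1 were strong on every array, with summed signals of 72896 to 145945 at 48 h and 64497 to 113491 in controls. These sums followed the spike-in class. On arrays of high spike-in signal they were 145945 and 112971 at 48 h and 113491 in the control. On arrays of low signal they were 72896 and 93389 at 48 h and 64497 to 72325 in controls. Why the sums followed that class was not tested.

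Of the 15866 probe sets, 391 (2.46%) passed limma's test at an adjusted p under 0.05, 217 of them higher (1.37%) and 174 lower (1.1%) at 48 h. An unadjusted p under 0.05 was reached by 2251 (14.2%). That share counts every probe set, dim ones and second ones of a gene included. Counts in gene lists read 1 probe set per gene, so the 14.2% is only a rough yardstick for them. Counted by gene, with each gene read from its brightest probe set, 312 of 10411 (3%) passed, 173 higher (1.66%) and 139 lower (1.34%), and the median change over all genes was -0.02. Changes of 1 or more on the log2 scale were reached by 82 of the higher and 42 of the lower genes. In 243 of the 312 genes the 48 h arrays and the control arrays did not overlap, 142 higher and 101 lower. Over all 10411 genes that held for 719 (6.91%), 357 higher (3.43%) and 362 lower (3.48%). Leaving out control replicate 2 gave 193 probe sets, leaving out 48 h replicate 3 gave 211, and 119 were called without 48 h replicates 3 and 4 together. It was 56 when the spread was taken from these 8 arrays alone, 158 with only the arrays of low spike-in signal, 2 with only those of high signal, and 440 with the spike-in level as a block.

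**Figure D1:**
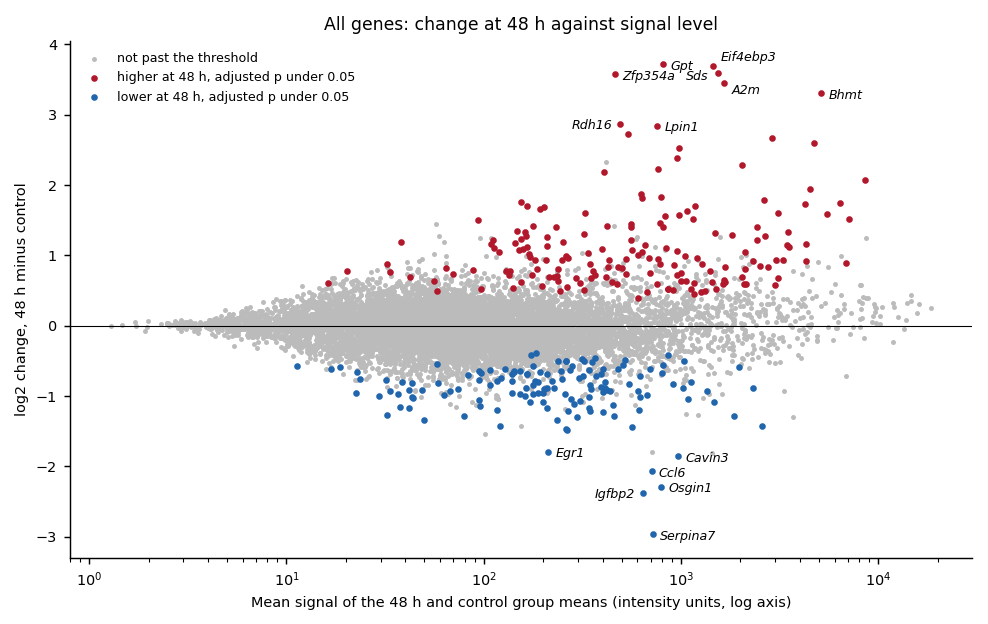
Each point is 1 gene, with the mean of its 48 h and control signals on a log axis and its log2 change, 48 h minus control, on the other. Red points are the 173 genes higher and blue points the 139 genes lower at an adjusted p under 0.05, with Gpt (3.72) at the top and Serpina7 (-2.96) at the bottom.

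Tat, tyrosine aminotransferase, an enzyme long used as a marker of glucocorticoid action in liver, was read first. Its signal was 1859, 2514, 2001 and 1943 at 48 h, against 1374, 435, 652 and 1087 in controls. Every 48 h array lay above the highest control, and the change was 1.32 ± 0.34 (adjusted p = 0.0246). The call ended without any 1 of 48 h replicates 2 and 3 and control replicates 2 and 3 (adjusted p = 0.0599 to 0.162). Nr3c1, the receptor gene itself, had signals of 592, 522, 188 and 380.0 at 48 h and 458, 419, 519 and 257 in controls. The groups overlapped and the change of -0.04 ± 0.25 did not pass (adjusted p = 0.970). Its sign turned positive under 9 of the other settings, with changes from 0.0027 to 0.44.

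Among the genes past the threshold the largest rise was in Gpt, alanine aminotransferase, which feeds alanine carbon into gluconeogenesis. Its signal was 1121, 2183, 1687 and 1144 at 48 h, against 77.3, 80.8, 139 and 49.7 in controls. The groups stood far apart, with a change of 3.72 ± 0.34 (adjusted p = 3.87e-09). Sds, serine dehydratase, which turns serine into pyruvate, had 2201, 3256, 3248 and 1677 at 48 h and 1641, 67.5, 71.2 and 81.1 in controls. Control replicate 1 stood near the 48 h arrays and the other 3 controls lay far below, and the change was 3.59 ± 0.61 (adjusted p = 0.000321). Got1, the cytosolic aspartate aminotransferase, had 2231, 3196, 5787 and 2040.4 at 48 h and 1929, 429.8, 347 and 418 in controls. Control replicate 1 was again the high one, close under the lowest 48 h array. The change of Got1 was 2.29 ± 0.58 (adjusted p = 0.0215), and that call ended without any 1 of 48 h replicates 2 and 3 and control replicates 2, 3 and 4 (adjusted p = 0.0524 to 0.105). Bhmt, which returns homocysteine to methionine, had 7974, 8179, 12102 and 6799 at 48 h and 848, 68.5, 2470.0 and 2539 in controls. Control replicate 2 was the low one, all 48 h arrays lay above every control, and the change was 3.31 ± 0.58 (adjusted p = 0.000435).

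These 4 genes and Tat belong to a list of 28 measured genes of amino acid catabolism and the urea cycle, of which 14 rose and 0 fell. Over all genes 1.66% rose and 1.34% fell, the shares against which the list counts here and below stand. The median change of the list was 0.92, beside -0.02 over all genes. Ass1, argininosuccinate synthase of the urea cycle, had 6587, 9456, 17190.1 and 9066 at 48 h and 4523, 2068, 3497 and 4399 in controls. The 48 h arrays lay above every control, the change was 1.51 ± 0.34 (adjusted p = 0.00870), and the call ended without any 1 of 48 h replicate 3 and control replicate 2 (adjusted p = 0.0680 to 0.0690). The urea cycle genes Arg1, arginase (1.59), and Otc, ornithine transcarbamylase (0.83), rose too, as did Tdo2 (1.74) and Kynu (1.52) of tryptophan breakdown. Gnmt (1.79), which uses the methyl donor S-adenosylmethionine, rose, as did Ahcy (1.6), which splits the product left by that use. So did Glud1, glutamate dehydrogenase (0.94), and Fah of tyrosine breakdown (0.83). Of the 14, Otc alone had overlapping groups. The other 14 members did not pass. Of the 28, 21 were higher at an unadjusted p under 0.05, which 14.2% of all probe sets, not genes, reached in either direction. Leaving out 48 h replicate 2 or 3 gave 9 rises, leaving out control replicate 2 gave 8, and there were 7 without 48 h replicates 3 and 4 together. With the spread taken from the 8 arrays of 48 h and control alone there were 3.

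**Figure D2:**
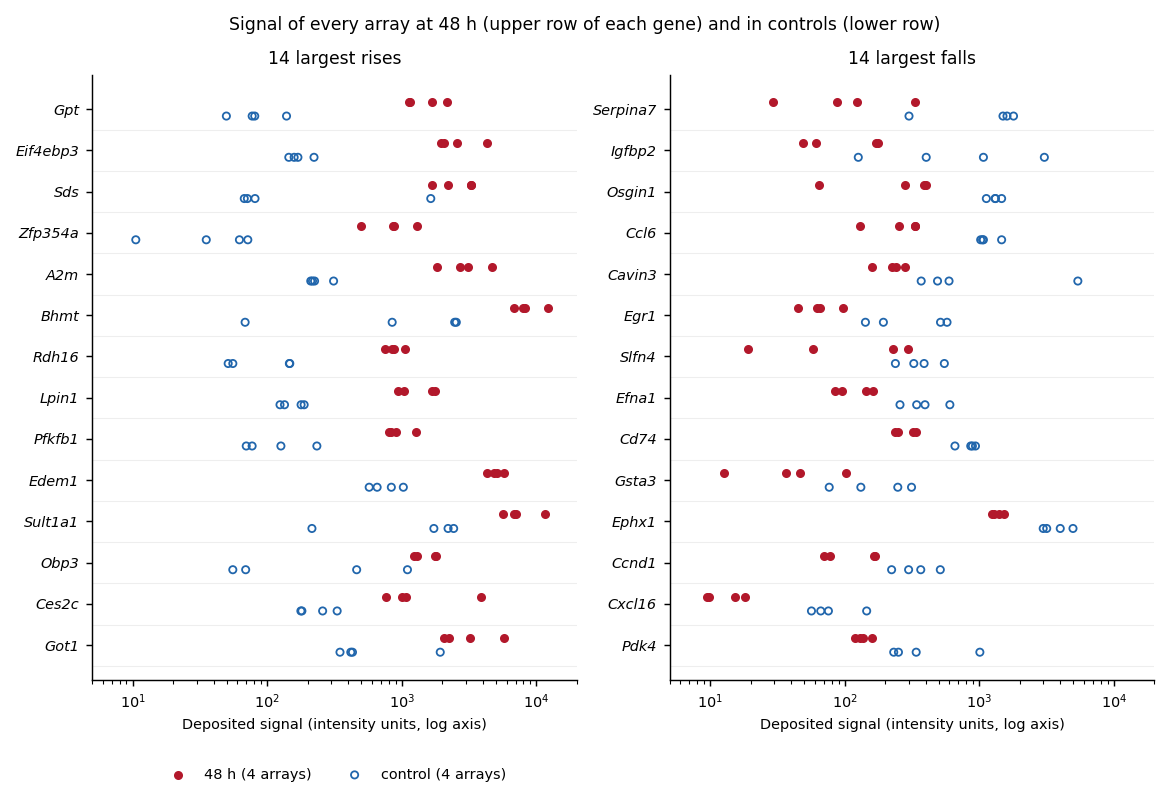
Each point is the signal of 1 array on a log axis, for the 14 genes with the largest rise and the 14 with the largest fall, with the 4 arrays at 48 h in the upper row of a gene and the 4 controls in the lower row. In 24 of the 28 genes the groups do not overlap, and the exceptions are Serpina7, Igfbp2, Slfn4 and Gsta3. Over all 10411 genes 719 (6.91%) do not overlap. The 28 genes were picked for large changes on these same arrays, so most were likely to stand apart.

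Eif4ebp3, which encodes a protein that binds and holds back the cap-binding translation factor, had 2074, 2579.6, 4321 and 1964 at 48 h and 145, 159, 223 and 169 in controls. Its change was 3.69 ± 0.44 (adjusted p = 8.02e-07). Zfp354a, a zinc finger protein gene, had 1295, 877, 499.9 and 853 at 48 h and 10.6, 35.2, 71.7 and 62.2 in controls, a change of 3.58 ± 0.51 (adjusted p = 1.84e-05). In both genes the lowest 48 h array stood several-fold above the highest control. Edem1, which marks misfolded glycoproteins in the endoplasmic reticulum for removal, had 4828, 5133, 5757 and 4302 at 48 h and 655, 836, 1026 and 572 in controls, a change of 2.67 ± 0.28 (adjusted p = 4.27e-08). Rdh16, a retinol dehydrogenase, had 749, 867, 1049 and 845 at 48 h and 55.5, 147, 51.3 and 146 in controls, a change of 2.87 ± 0.30 (adjusted p = 4.27e-08). Lpin1, the phosphatidate phosphatase that makes diacylglycerol, had 1762, 1029, 1683 and 937 at 48 h and 134, 124, 178 and 188 in controls, a change of 2.84 ± 0.43 (adjusted p = 6.61e-05). Edem1, Rdh16 and Lpin1 showed no overlap between the groups.

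Pfkfb1 encodes the liver enzyme that sets the level of fructose 2,6-bisphosphate, the signal that switches between glycolysis and gluconeogenesis. It had 837, 909, 1276 and 800.5 at 48 h and 77.2, 69.8, 126 and 234 in controls, without overlap, a change of 2.72 ± 0.31 (adjusted p = 2.17e-07). It was the 1 riser among 20 measured genes of glycolysis and lipogenesis, of which 0 fell, beside 1.66% higher and 1.34% lower over all genes. The median change of the list was -0.03, or 0.01 without control replicate 3 and 0.32 without control replicate 4. Among 14 genes of gluconeogenesis and glycogen, 2 rose and 0 fell, beside those same shares, with a median of 0.43. Slc37a4, which carries glucose 6-phosphate into the endoplasmic reticulum, had 1544, 1424, 2713 and 1466 at 48 h and 597, 253, 413 and 1041 in controls, a change of 1.70 ± 0.24 (adjusted p = 1.84e-05). Ppp1r3b, a subunit that targets a phosphatase to glycogen, had 167, 125, 215 and 139 at 48 h and 39.3, 34.1, 69.3 and 78.1 in controls, a change of 1.16 ± 0.24 (adjusted p = 0.00419). Neither gene had overlapping groups. Pck1, the cytosolic enzyme that commits carbon to gluconeogenesis, is a member chosen for mention after its value was seen. Its signal was 5512 ± 278 at 48 h and 4143 ± 751 in controls (SD, n = 4 each), and its change of 0.43 ± 0.27 (adjusted p = 0.529) did not pass.

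Of 39 measured drug-metabolising enzyme genes 9 rose and 2 fell. Their median was 0.36, or 0.17 without control replicate 2. Sult1a1, a phenol sulfotransferase, had 5685, 7054, 11601 and 6792 at 48 h and 1729.6, 215, 2205 and 2427 in controls, a change of 2.60 ± 0.40 (adjusted p = 6.61e-05). Ces2c, a carboxylesterase, had 759, 1073, 3896 and 995 at 48 h and 258, 181, 331 and 178 in controls, a change of 2.39 ± 0.55 (adjusted p = 0.00920). Replicate 3 was the high 48 h array for both genes, and the Ces2c call ended without 48 h replicate 3 (adjusted p = 0.0815). Fmo1, a flavin monooxygenase, had 932, 1141, 1779 and 941 at 48 h and 331, 81.6, 754 and 359 in controls, a change of 1.82 ± 0.43 (adjusted p = 0.0119), and its call ended without any 1 of 48 h replicate 3 and control replicate 2 (adjusted p = 0.0676 to 0.118). The remaining rises were Por, the electron donor of the P450 enzymes (1.82), Cyp2c11 (1.74), Nr1i3, the xenobiotic-sensing receptor CAR (1.23), Sult1b1 (1.16), Cyp3a18 (1.15) and Cyp3a23-3a1 (0.92). Probe sets of close P450 paralogs may share signal, so these P450 values are uncertain as to the gene. Leaving out 48 h replicate 3 gave 3 rises, leaving out control replicate 2 gave 6, and there were 2 without 48 h replicates 3 and 4 together. With the spread taken from the 8 arrays of 48 h and control alone there was 1.

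The falls in that list were Ephx1 and Gsta3. The number of falls was 1 without any 1 of the 48 h arrays and control replicates 2 and 3, and 0 without 48 h replicates 3 and 4 together. Ephx1, the microsomal epoxide hydrolase, had 1533, 1406, 1281 and 1249 at 48 h and 2985, 3169, 3996 and 4969 in controls. Every 48 h array lay below every control and the change was -1.42 ± 0.38 (adjusted p = 0.0347), a call that ended without any 1 of 48 h replicates 1, 2, 3 and 4 and control replicates 2, 3 and 4 (adjusted p = 0.0505 to 0.0934). Gsta3, a glutathione S-transferase, had 36.4, 102, 47 and 12.8 at 48 h and 248, 132, 314 and 76.8 in controls, with overlap, a change of -1.43 ± 0.30 (adjusted p = 0.00438). In the list of 20 oxidant response genes 1 fell and 0 rose, beside 1.34% and 1.66% of all genes, with a median of -0.17. That gene was Gclc, the catalytic subunit of the enzyme that limits glutathione synthesis, with 250.5, 323, 174 and 274 at 48 h and 686, 568, 785 and 606 in controls. No array overlapped and the change was -1.29 ± 0.19 (adjusted p = 5.57e-05). Osgin1, an oxidative stress induced growth inhibitor outside these lists, had 281, 399.7, 64.5 and 387 at 48 h and 1466, 1311, 1318 and 1128 in controls. Its change was -2.29 ± 0.49 (adjusted p = 0.00529), and the call ended without 48 h replicate 3 (adjusted p = 0.0560).

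Of 21 bile acid genes 2 rose and 0 fell, beside 1.66% and 1.34% of all genes. The median of the list was 0.25, and it turned to -0.10 without control replicate 2. Slc27a5, the ligase that attaches bile acids to coenzyme A, had 2770.1, 4338, 4708 and 3157 at 48 h and 1059, 946, 2395 and 2027 in controls, a change of 1.28 ± 0.22 (adjusted p = 0.000481). Acox2, the oxidase that shortens the side chain of bile acid precursors, had 1270.4, 1621, 1559 and 1169 at 48 h and 568, 109.9, 674 and 844 in controls, a change of 1.57 ± 0.30 (adjusted p = 0.00163). Neither had overlapping groups, and without control replicate 2 the Acox2 change was 0.99 (adjusted p = 0.00937). Cyp7a1, the rate-limiting enzyme of bile acid synthesis, was singled out after its values were seen. Its signal was 797 ± 411 at 48 h and 403 ± 353 in controls (SD, n = 4 each), and the change of 1.26 ± 0.48 (adjusted p = 0.179) did not pass.

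Genes known to be induced by glucocorticoids formed a list of 19 measured genes, of which 7 rose and 0 fell, with a median of 0.54. Tsc22d3, which encodes the anti-inflammatory leucine zipper protein GILZ, had 979.9, 1158, 1017 and 825 at 48 h and 266, 183, 309 and 248 in controls, a change of 1.87 ± 0.24 (adjusted p = 4.73e-06). Fkbp5, a co-chaperone that dampens the receptor, had 233, 229, 449 and 393 at 48 h and 76.1, 83.0, 85.4 and 59.2 in controls, a change of 1.68 ± 0.32 (adjusted p = 0.00167). In both genes the groups lay apart. Sult1e1, the oestrogen sulfotransferase, had 5701, 6669.8, 5099 and 7154 at 48 h and 2563, 119, 2951 and 5579.7 in controls. Control replicate 4 reached into the 48 h range and replicate 2 was far below the rest, the change was 1.94 ± 0.52 (adjusted p = 0.0341), and the call ended without any 1 of 48 h replicates 1, 2, 3 and 4 and control replicate 2 (adjusted p = 0.0563 to 0.232). Without control replicate 2 the Sult1e1 change was 0.80. The other rises were Klf9 (1.41), a repressing transcription factor, Errfi1 (1.22), an inhibitor of the epidermal growth factor receptor, Dusp1 (0.96), a phosphatase that switches off stress kinases, and Cdkn1a (0.93), the p21 inhibitor of cyclin-dependent kinases. The count was 4 without 48 h replicates 3 and 4 together, and 4 with the spread taken from the 8 arrays of 48 h and control alone.

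Genes that handle the steroid or its receptor numbered 11, with 2 higher, 1 lower and a median of -0.08. Besides Fkbp5 the riser was Hsd11b1, which regenerates active glucocorticoid inside the liver cell. It had 3604, 4921, 3536 and 3945 at 48 h and 1804, 1926, 2357 and 2167 in controls, without overlap, a change of 0.94 ± 0.17 (adjusted p = 0.000813). The faller was Hsp90ab1, which encodes a chaperone that holds the unbound receptor. Its signal was 1389, 1802, 1449.8 and 1613 at 48 h and 2303, 2856, 2044 and 2268 in controls, without overlap. The change was -0.59 ± 0.16 (adjusted p = 0.0315), and the call ended without any 1 of 48 h replicates 1, 3 and 4 and control replicates 1 and 2 (adjusted p = 0.0555 to 0.157). Growth-arrest and stress genes, 21 measured, held 2 rises and 0 falls, beside 1.66% and 1.34% of all genes, with a median of 0.06. Btg1, an antiproliferative gene, had 2622, 3261, 3506 and 3613 at 48 h and 1734, 1845, 1989 and 1582 in controls, a change of 0.85 ± 0.18 (adjusted p = 0.00406). Cdkn1a had 170.2, 175, 415 and 248 at 48 h and 90.1, 103, 122 and 122 in controls, a change of 0.93 ± 0.26 (adjusted p = 0.0372) whose call ended without any 1 of 48 h replicates 3 and 4 and control replicates 1 and 2 (adjusted p = 0.0873 to 0.214).

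Genes of plasma proteins changed in both directions. A2m, alpha-2-macroglobulin, the main acute-phase protein of the rat, had 2705, 4646, 3111 and 1830.4 at 48 h and 211, 217, 225 and 311 in controls, a change of 3.45 ± 0.57 (adjusted p = 0.000194). Orm1, an acute-phase glycoprotein, had 8159.5, 10452, 19078 and 15383 at 48 h and 3836, 6891, 785 and 3684 in controls, a change of 2.07 ± 0.45 (adjusted p = 0.00620). The groups overlapped in neither gene. They were the 2 rises among 20 acute-phase genes, of which 0 fell, and the median was 0.11. Over all genes 1.66% rose and 1.34% fell, shares that also stand beside the smaller counts in this paragraph. Serpina7, the thyroxine-binding globulin that carries thyroid hormone, had 123, 331, 29.4 and 87.7 at 48 h and 1500.2, 1796, 1606 and 301 in controls. Control replicate 4 lay within the 48 h range, and the change was -2.96 ± 0.46 (adjusted p = 8.52e-05). It was the 1 faller, with 0 risers, among 23 genes of other proteins secreted by hepatocytes, and that median was 0.14. In the growth hormone and IGF list 1 of 17 rose and 2 fell. Their median was -0.04, or 0.05 without control replicate 1 and 0.09 without control replicate 2. Igfbp2, a plasma binding protein of the insulin-like growth factors, had 61.7, 172, 177 and 49.1 at 48 h and 3044, 403, 1074 and 126 in controls. The spread among controls was wide, the groups overlapped, and the change was -2.38 ± 0.49 (adjusted p = 0.00388).

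Obp3, a gene of the alpha-2u-globulin family of urinary proteins made in the livers of male rats, had 1780.0, 1241, 1304 and 1749.9 at 48 h and 69.2, 1101, 55.5 and 462 in controls. The controls spread widely below the 48 h arrays, and the change was 2.53 ± 0.57 (adjusted p = 0.00825). Members of that family are alike in sequence, so the signal may be shared among them. The call ended without any 1 of control replicates 1 and 3 (adjusted p = 0.0515 to 0.0591). Jak2, the kinase of the growth hormone receptor, was dim, with 26.7, 16.4, 3.92 and 15.8 at 48 h and 51.9, 56.9, 42.7 and 42.5 in controls. Its change was -0.77 ± 0.17 (adjusted p = 0.00763), and the call ended without 48 h replicate 3 (adjusted p = 0.0629). The hormone's main liver product Igf1, mentioned after its value was seen, was 4521 ± 1081 at 48 h and 5216 ± 1303 in controls (SD, n = 4 each), a change of -0.21 ± 0.21 (adjusted p = 0.734).

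Windows before a RefSeq start, build GRCr8, were found for 10 of the 14 largest rises and 12 of the 14 largest falls. The receptor binds pairs of the half-site TGTTCT, which reads AGAACA on the other strand. In the 250 bases before the start that the promoter table uses, on either strand, that half-site lay in 3 of the 10 rises (30%) and 2 of the 12 falls (16.7%), and in 17.1% of 27457 windows of the same length. The full inverted pair, AGAACA and TGTTCT with any 3 bases between, lay in 0 of these windows and in 1 of all 27457. The windows of the 3 risers that hold a half-site are shown in transcript orientation with half-sites in capitals, because they let a reader place the motif. Of the 22 windows 11 lay outside the gene's span in RefSeq, 4 partly inside and 7 wholly inside it, so the start is that of a transcript and not always the outer end of the gene. The Sult1a1 window lay outside the gene, the Obp3 window partly inside and the Lpin1 window wholly inside. That of Lpin1 is chr6:45108943-45109192, of Sult1a1 chr1:190706113-190706362 and of Obp3 chr5:79640676-79640925, all on the minus strand.
Lpin1: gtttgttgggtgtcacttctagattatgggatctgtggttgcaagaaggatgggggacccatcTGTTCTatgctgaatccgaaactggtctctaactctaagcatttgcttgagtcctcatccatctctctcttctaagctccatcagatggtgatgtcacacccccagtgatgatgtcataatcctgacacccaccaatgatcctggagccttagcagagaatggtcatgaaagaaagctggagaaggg
Sult1a1: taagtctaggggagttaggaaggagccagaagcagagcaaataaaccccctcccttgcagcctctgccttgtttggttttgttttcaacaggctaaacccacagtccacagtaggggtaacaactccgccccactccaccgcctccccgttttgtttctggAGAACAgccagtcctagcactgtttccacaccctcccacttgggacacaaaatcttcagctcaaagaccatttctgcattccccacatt
Obp3: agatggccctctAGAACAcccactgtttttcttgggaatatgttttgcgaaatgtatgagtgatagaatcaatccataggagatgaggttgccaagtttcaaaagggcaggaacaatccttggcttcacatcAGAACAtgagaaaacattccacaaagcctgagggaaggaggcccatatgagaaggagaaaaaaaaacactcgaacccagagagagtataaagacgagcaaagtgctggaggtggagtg
Counted back from that start, the match began 187 bases before it in Lpin1, 89 in Sult1a1, and 238 and 118 in Obp3. Among the falls, Slfn4 held a match at 230 and Ephx1 at 125. A match of letters is a description and says nothing of binding.

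Of 46 measured genes of oxidative phosphorylation 7 rose and 0 fell. The changes of 44 of the 46 were above 0, the range of the list was -0.07 to 0.61, and its median was 0.34. Over all 10411 genes 4965 changes were above 0. The 46 values come from the same 8 arrays and are not separate observations. Ndufv2, a complex I subunit, had 1388, 1432, 1857 and 983 at 48 h and 895, 723, 1103 and 888 in controls, with overlap, a change of 0.61 ± 0.16 (adjusted p = 0.0334). Atp5f1c, a subunit of the ATP synthase, had 3063, 3700.1, 4117 and 3493 at 48 h and 2125, 1966, 2723 and 2795 in controls, without overlap, a change of 0.58 ± 0.15 (adjusted p = 0.0285). Cox6a1, a subunit of cytochrome oxidase, had 1488, 1616, 2281 and 1718 at 48 h and 1115, 1277, 1101 and 1369.5 in controls, without overlap, a change of 0.52 ± 0.12 (adjusted p = 0.00896). The other rises were Cyc1 (0.52), Ndufa8 (0.52), Sdhb (0.50) and Uqcrh (0.44). The number of rises depended on single arrays, and was 2 when 48 h replicate 2 was left out, 1 when 48 h replicate 3 or control replicate 2 was, and 4 when control replicate 4 was. It was 4 with each array centred on its median, 1 with array weights, and 0 without 48 h replicates 3 and 4 together. With the spread taken from the 8 arrays of 48 h and control alone it was 0. The median of the list was 0.27 to 0.42 in the 22 other settings.

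In the list of 24 genes of fatty acid oxidation and ketogenesis 3 fell and 0 rose. Their median was 0.02, and it was below 0 without 48 h replicate 2 (-0.05) or 4 (-0.10) or control replicate 2 (-0.06) or 4 (-0.14). Pdk4, the kinase that blocks entry of pyruvate into the citric acid cycle, had 130.4, 159, 119 and 136 at 48 h and 339.9, 1010.0, 251 and 231 in controls. The groups did not overlap, control replicate 2 was the highest array, and the change was -1.30 ± 0.28 (adjusted p = 0.00473), a call that ended without control replicate 2 (adjusted p = 0.0547), where the change was -0.85. Cyp4a3 and Cyp4a1, fatty acid hydroxylases of a family with close copies, overlapped between the groups. Cyp4a3 had 606, 1446, 517 and 1175 at 48 h and 3094, 2312, 1691 and 955 in controls, a change of -1.08 ± 0.30 (adjusted p = 0.0441). Cyp4a1 had 619.6, 1099.8, 682 and 1148 at 48 h and 2174, 2755, 1391 and 914 in controls, a change of -0.93 ± 0.25 (adjusted p = 0.0307). The call ended for Cyp4a3 without any 1 of 48 h replicates 1 and 3 and control replicates 1, 2 and 3 (adjusted p = 0.0591 to 0.211) and for Cyp4a1 without any 1 of 48 h replicates 1 and 3 and control replicates 1 and 2 (adjusted p = 0.113 to 0.206). The count of falls was 1 without 48 h replicate 1, 48 h replicate 3 or control replicate 1, and 0 without control replicate 2 or without 48 h replicates 3 and 4 together. It was also 0 with the spread taken from the 8 arrays of 48 h and control alone.

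Some genes of macrophages and of antigen presentation fell. Of 16 listed genes of Kupffer cells and macrophages 9 were measured, and all 9 had changes below 0, of which 3 passed and 0 rose, with a median of -0.47. Over all 10411 genes 5445 changes were below 0. Clec4f, a lectin of Kupffer cells, had 274, 323, 175 and 330.2 at 48 h and 674, 522, 658 and 658 in controls. Cd68, a lysosomal protein of macrophages, had 115, 123, 97.1 and 138 at 48 h and 228, 239.5, 255 and 224 in controls. C1qc, a chain of the complement component C1q, had 195, 171, 163 and 172 at 48 h and 316, 342, 237 and 389 in controls. The groups did not overlap in any of the 3 genes. The changes were -1.13 ± 0.18 (adjusted p = 0.000127) for Clec4f, -0.84 ± 0.22 (adjusted p = 0.0291) for Cd68 and -0.75 ± 0.20 (adjusted p = 0.0294) for C1qc. The Clec4f call held without any 1 array, that of Cd68 ended without any 1 of 48 h replicates 1, 2 and 3 and control replicates 1, 2 and 3 (adjusted p = 0.0555 to 0.104), and that of C1qc ended without any 1 of 48 h replicates 2, 3 and 4 and control replicates 1, 2 and 4 (adjusted p = 0.0610 to 0.0939). Summed over the list, signals were 1549 to 1994 at 48 h and 2696 to 3380 in controls. The count of falls was 1 without 48 h replicate 2 or 3, without control replicate 1 or 2, and without 48 h replicates 3 and 4 together. It was 2 with the spread taken from the 8 arrays of 48 h and control alone. In whole liver RNA, fewer macrophages and less of these transcripts per macrophage cannot be told apart.

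The MHC class II list had 9 measured genes, all below 0, of which 3 fell and 0 rose, with a median of -0.50. Over all 10411 genes 5445 changes were below 0. Cd74, the invariant chain that escorts class II molecules, had 238, 321, 251 and 341 at 48 h and 889, 864, 659.6 and 937 in controls, a change of -1.45 ± 0.27 (adjusted p = 0.00138). RT1-Da, a class II alpha chain, had 202, 226, 115 and 249 at 48 h and 526, 630.1, 385 and 433 in controls, a change of -1.21 ± 0.31 (adjusted p = 0.0228). RT1-Ba, another alpha chain, had 159, 107, 79.1 and 125 at 48 h and 244, 332, 247 and 302 in controls, a change of -1.08 ± 0.25 (adjusted p = 0.0109). All 3 genes had every 48 h array below every control. The call ended for RT1-Da without any 1 of 48 h replicate 3 and control replicates 1 and 2 (adjusted p = 0.0591 to 0.120) and for RT1-Ba without any 1 of 48 h replicate 3 and control replicate 2 (adjusted p = 0.0547 to 0.0676). The count of falls was 2 without control replicate 1 and 1 without control replicate 2, without 48 h replicate 3, or without 48 h replicates 3 and 4 together. It was 2 with the spread taken from the 8 arrays of 48 h and control alone. The macrophage marker sums above moved with this list, and their part in it was not tested.

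Of 25 interferon response genes 5 fell and 0 rose, with a median of -0.48. Psmb10, a subunit of the immunoproteasome, had 91.3, 101, 99.6 and 97.1 at 48 h and 228, 249.8, 200.1 and 229 in controls, a change of -1.0 ± 0.21 (adjusted p = 0.00523). Psmb9, another such subunit, had 171, 103, 82.6 and 117 at 48 h and 204, 276, 228 and 319.5 in controls, a change of -0.96 ± 0.26 (adjusted p = 0.0384). Irf1, a transcription factor of the interferon response, had 101, 96.4, 145 and 95.8 at 48 h and 320.2, 231, 225 and 207 in controls, a change of -0.97 ± 0.26 (adjusted p = 0.0352). These 3 genes had no overlap between groups, and the remaining falls were Irf7 (-0.89) and Mx2 (-0.81). The call ended for Psmb9 without any 1 of 48 h replicates 2, 3 and 4 and control replicates 2 and 4 (adjusted p = 0.0763 to 0.148) and for Irf1 without any 1 of 48 h replicates 1, 2 and 4 and control replicates 1 and 2 (adjusted p = 0.0738 to 0.125). Leaving out 48 h replicate 2 gave 1 fall, leaving out control replicate 2 gave 2, leaving out 48 h replicate 3 or control replicate 4 gave 3, and there was 1 without 48 h replicates 3 and 4 together. With the spread taken from the 8 arrays of 48 h and control alone there was 1. The macrophage sums moved with this list as well, and their part in it was not tested.

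**Figure D3:**
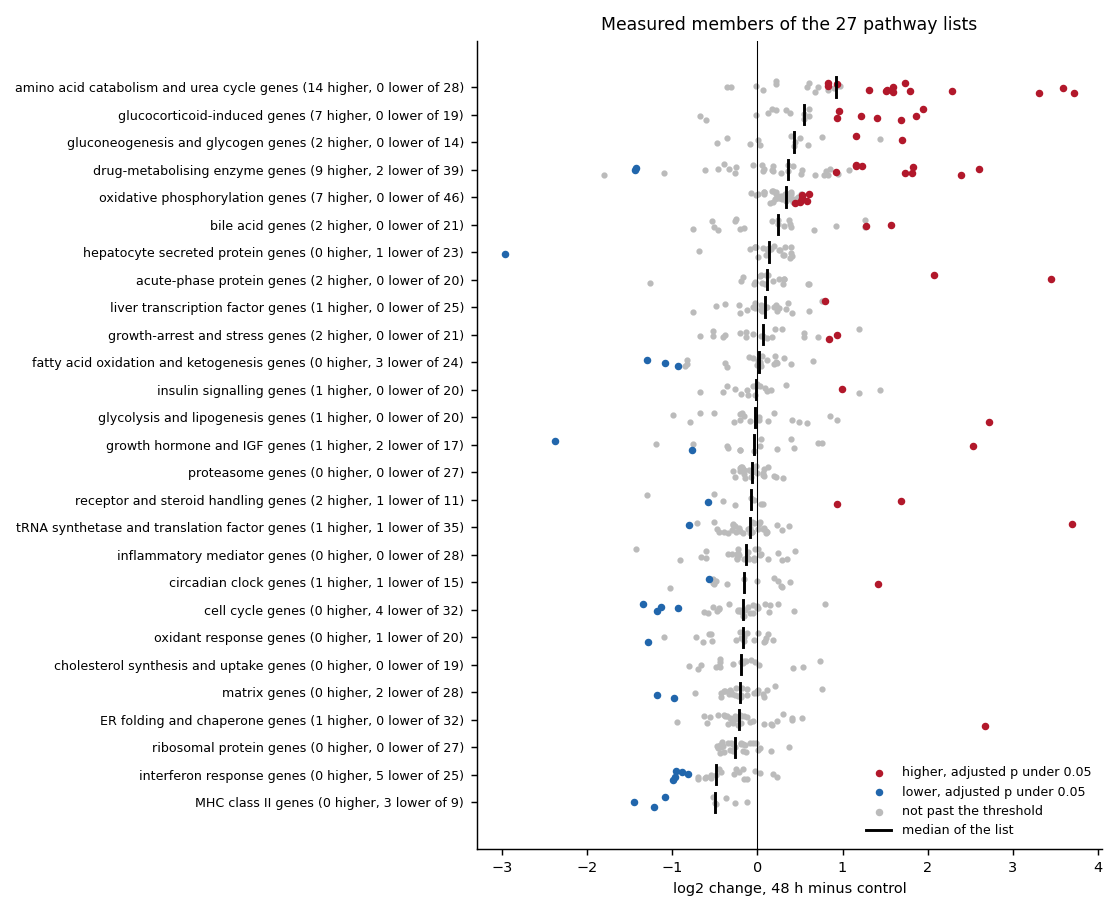
Each point is the log2 change, 48 h minus control, of 1 measured member of a pathway list, coloured where it passed at an adjusted p under 0.05, and the bar is the median of the list. The amino acid list is at the top with a median of 0.92, and the MHC class II list at the bottom with a median of -0.50.

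Ccl6, a chemokine of myeloid cells, had 333, 253, 130.3 and 332 at 48 h and 1466, 1024, 1058 and 1073 in controls, a change of -2.07 ± 0.24 (adjusted p = 5.03e-07). Cxcl16, a chemokine held on the surface of macrophages and endothelium, had 15.4, 9.79, 18.2 and 9.49 at 48 h and 75.7, 146, 56.7 and 66.4 in controls, a change of -1.34 ± 0.26 (adjusted p = 0.00217). Both showed no overlap. Slfn4, an interferon-induced gene of myeloid cells in mice, had 294, 57.9, 19.3 and 227 at 48 h and 389, 326, 550.1 and 238 in controls, with overlap. Its change was -1.48 ± 0.30 (adjusted p = 0.00315), while its second, dimmer probe set had a change of 0.09 that did not pass. By limma, an unadjusted p under 0.05 was reached by 14.2% of all probe sets and by 3 of 28 inflammatory mediator genes, which were lower. Of these 28 genes 0 passed limma's adjusted threshold. Cxcl1, a neutrophil chemokine picked from them after its value was seen, was 49.1 ± 54.1 at 48 h and 259 ± 284 in controls (SD, n = 4 each), a change of -1.42 ± 0.77 (adjusted p = 0.418).

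Of 32 cell cycle genes 4 fell and 0 rose, with a median of -0.17 (-0.09 without control replicate 1). Ccnd1, cyclin D1, which drives entry into the cell cycle, had 168, 70.1, 77.3 and 165 at 48 h and 513, 367, 223 and 299 in controls. No overlap was seen, all 3 of its probe sets passed, and the change was -1.35 ± 0.33 (adjusted p = 0.0175). Mcm6, a subunit of the replication helicase, had 17, 10.3, 5.86 and 5.56 at 48 h and 123, 111, 10.5 and 48.4 in controls, a change of -1.17 ± 0.26 (adjusted p = 0.00847). Stmn1, a microtubule-destabilising protein of dividing cells, had 44, 51.7, 12.5 and 83.8 at 48 h and 236, 137, 83.4 and 114 in controls, a change of -1.14 ± 0.32 (adjusted p = 0.0431). Mcm6 and Stmn1 overlapped between groups, and the fourth fall was Mcm2 (-0.93). The call ended for Ccnd1 without any 1 of 48 h replicates 2 and 3 and control replicates 1 and 2 (adjusted p = 0.0588 to 0.0821), for Mcm6 without any 1 of control replicates 1 and 2 (adjusted p = 0.0635 to 0.0715), and for Stmn1 without any 1 of 48 h replicates 1, 2 and 3 and control replicates 1, 2 and 4 (adjusted p = 0.0502 to 0.213). The count was 0 without control replicate 1, without control replicate 2, or without 48 h replicates 3 and 4 together, and 1 without 48 h replicate 2 or 3. It was also 0 with the spread taken from the 8 arrays of 48 h and control alone.

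Egr1, an immediate-early transcription factor, had 96.4, 61.8, 65.3 and 44.9 at 48 h and 515, 576, 194 and 143 in controls, a change of -1.80 ± 0.30 (adjusted p = 0.000214). Efna1, the ligand ephrin A1, had 162, 145, 95.2 and 84.3 at 48 h and 258, 605, 343 and 395 in controls, a change of -1.47 ± 0.30 (adjusted p = 0.00352). Cavin3, a coat protein of caveolae, had 226, 242, 278 and 159 at 48 h and 370.3, 5399, 489.6 and 596 in controls, a change of -1.85 ± 0.41 (adjusted p = 0.00653). None of the 3 overlapped. Control replicate 2 stood far above the other controls in Cavin3, and without it the change was -1.0 (adjusted p = 0.0297). Of 28 matrix genes 2 fell and 0 rose, beside 1.34% and 1.66% of all genes, with a median of -0.21. Bgn, the proteoglycan biglycan, had 178, 84.8, 48.0 and 184 at 48 h and 298, 287, 239 and 356 in controls, a change of -1.17 ± 0.33 (adjusted p = 0.0426). Col3a1, a fibrillar collagen that also stands in the stellate cell list, had 552, 403, 319 and 488 at 48 h and 695, 977, 770.3 and 1162 in controls, a change of -0.98 ± 0.27 (adjusted p = 0.0424). The groups did not overlap in either gene, and the call ended for Bgn without any 1 of 48 h replicates 2 and 3 and control replicates 1, 2 and 4 (adjusted p = 0.0898 to 0.219) and for Col3a1 without any 1 of 48 h replicates 2, 3 and 4 and control replicates 2 and 4 (adjusted p = 0.0619 to 0.163). Summed over 11 stellate cell and fibroblast markers, signals were 1206 to 1515 at 48 h and 1650 to 2481 in controls. Their part in the matrix result was not tested. The count of matrix falls was 0 without 48 h replicate 2 or 3 or control replicate 2 or 4 and without 48 h replicates 3 and 4 together, and 1 without 48 h replicate 4 or control replicate 1. It was also 0 with the spread taken from the 8 arrays of 48 h and control alone.

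**Figure D4:**
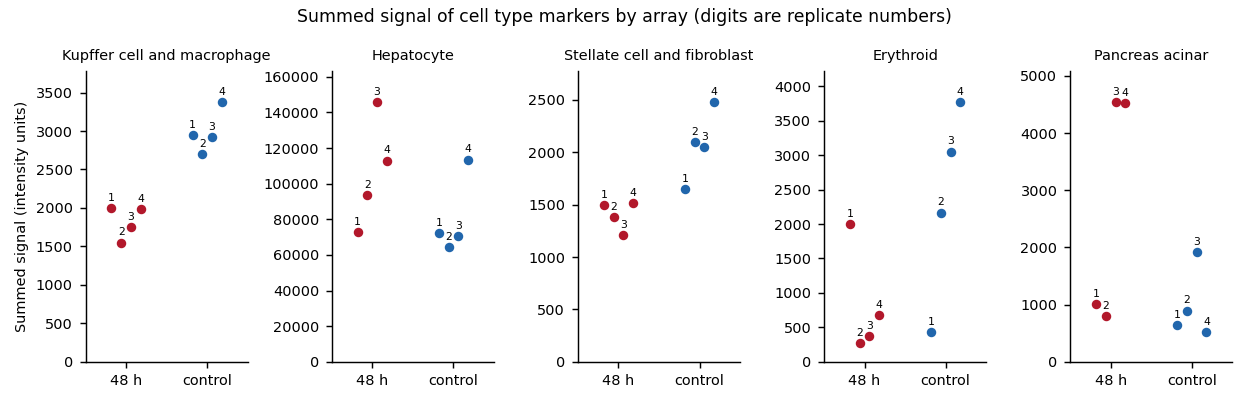
Each point is the summed signal of a cell type's measured markers on 1 array, with the 4 arrays at 48 h left of the 4 controls and replicate numbers beside the points. Kupffer cell sums do not overlap (1549 to 1994 at 48 h, 2696 to 3380 in controls), and pancreas acinar sums are highest on 48 h replicates 3 and 4.

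Of 15 circadian clock genes 1 rose and 1 fell, with a median of -0.15 that turned to 0.03 without 48 h replicate 3. Usp2, a deubiquitinase under clock control, had 179.9, 263, 428 and 228 at 48 h and 106, 68.0, 56.1 and 90.6 in controls, without overlap, a change of 1.41 ± 0.31 (adjusted p = 0.00619). Bhlhe41, a repressor of the clock, was dim on all arrays, with 1.86, 3.90, 2.32 and 1.71 at 48 h and 23.5, 3.82, 26.3 and 26.5 in controls. Control replicate 2 lay within the 48 h range, the change was -0.57 ± 0.15 (adjusted p = 0.0312), and the call ended without any 1 of 48 h replicates 1, 2, 3 and 4 and control replicates 1, 3 and 4 (adjusted p = 0.0555 to 0.0942). Over all genes 1.66% rose and 1.34% fell, so counts of 1 in the lists of this paragraph say little about the pathways. Of 25 liver transcription factor genes 1 rose and 0 fell. It was Foxa1, a pioneer factor of liver genes, with 106, 109.8, 99.99 and 157 at 48 h and 47.6, 21.1, 70.9 and 92.1 in controls, a change of 0.79 ± 0.22 (adjusted p = 0.0426) whose call ended without any 1 of 48 h replicates 1, 2, 3 and 4 and control replicates 1 and 2 (adjusted p = 0.0590 to 0.264). Of 20 insulin signalling genes 1 rose and 0 fell, namely Foxo3, a transcription factor that insulin keeps out of the nucleus. Foxo3 had 282, 443, 446 and 269 at 48 h and 158, 154, 203 and 134 in controls, without overlap, a change of 0.99 ± 0.18 (adjusted p = 0.000826), and 1 of its 3 probe sets passed.

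Of 35 genes of tRNA synthetases and translation factors 1 rose, Eif4ebp3, and 1 fell, beside 1.66% and 1.34% of all genes, with a median of -0.09. The faller was the elongation factor subunit Eef1g, with 889.7, 859.7, 814 and 596 at 48 h and 1853, 1843, 1391 and 776 in controls, an overlap between groups, and a change of -0.80 ± 0.23 (adjusted p = 0.0441) whose call ended without any 1 of 48 h replicates 1, 2, 3 and 4 and control replicates 1, 2 and 3 (adjusted p = 0.0516 to 0.205). Of 32 genes of folding in the endoplasmic reticulum 1 rose, Edem1, and 0 fell, with a median of -0.22 (-0.08 without control replicate 2). By limma, 0 passed among 27 ribosomal protein genes, where 11 were lower at an unadjusted p under 0.05, among 27 proteasome genes, where 0 reached that, and among 19 genes of cholesterol synthesis and uptake, where 2 did. Marker lists of T and NK cells, B cells, neutrophils, erythroid, endothelial and bile duct cells also gave 0 calls, with 1, 0, 0, 1, 2 and 1 members at an unadjusted p under 0.05. Of all probe sets 14.2% reached that unadjusted p. In the hepatocyte list 2 of 10 rose, Ass1 and Tat, and 0 fell, with a median of 0.37. The count of rises was 0 without 48 h replicate 3, without control replicate 2, or without 48 h replicates 3 and 4 together. It was also 0 with only arrays of low spike-in signal and with the spread taken from the 8 arrays alone. The median was 0.18 with low spike-in arrays and 0.11 without 48 h replicates 3 and 4 together.

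The 48 h arrays were also set against the neighbouring times of the same course. Against the 4 arrays labelled 24 h, 118 probe sets (0.744%) passed, 40 higher (0.252%) and 78 lower (0.492%), and 1559 (9.83%) had an unadjusted p under 0.05. By gene, 86 (0.826%) passed, 31 higher (0.298%) and 55 lower (0.528%). With each array centred on its median the split was 19 higher and 93 lower. Sds had 2201, 3256, 3248 and 1677 at 48 h and 84.3, 189.8, 272 and 83.6 at 24 h, a change of 3.87 ± 0.61 (adjusted p = 0.00143). Eif4ebp3 had 2074, 2579.6, 4321 and 1964 at 48 h and 180.2, 837, 263 and 241 at 24 h, a change of 2.91 ± 0.44 (adjusted p = 0.00135). Got1 and Lpin1 were the next largest rises, with changes of 2.37 ± 0.58 (adjusted p = 0.0336) and 2.21 ± 0.43 (adjusted p = 0.00569). In all 4 genes the 48 h arrays lay above every 24 h array. The largest falls were Tubb2a, a beta tubulin, with 681, 515, 769 and 509 at 48 h and 2609, 2464, 1791 and 2436 at 24 h, a change of -1.86 ± 0.38 (adjusted p = 0.0100), and 3 genes of the secretory pathway. Those were Creld2 (-1.66 ± 0.39, adjusted p = 0.0284), Fkbp11 (-1.22 ± 0.24, adjusted p = 0.00615) and Tmed3 (-1.20 ± 0.26, adjusted p = 0.0167). Calls ended for Got1 without any 1 of 48 h replicates 2, 3 and 4 and 24 h replicates 1, 2 and 4 (adjusted p = 0.0616 to 0.139), for Creld2 without any 1 of 48 h replicates 2 and 4 and 24 h replicates 1, 2 and 4 (adjusted p = 0.0599 to 0.123), for Tmed3 without any 1 of 48 h replicates 2 and 4 (adjusted p = 0.0553 to 0.0558) and for Tubb2a without 48 h replicate 4 (adjusted p = 0.0520). Leaving out 48 h replicate 4 gave 39 probe sets, leaving out 24 h replicate 1 gave 51 and leaving out 24 h replicate 4 gave 50. With only arrays of low spike-in signal it was 2, and with only those of high signal 1.

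Against the 36 h arrays 5 probe sets (0.0315%) passed, 3 higher (0.0189%) and 2 lower (0.0126%), and 1116 (7.03%) had an unadjusted p under 0.05. By gene, 4 (0.0384%) passed, 2 higher (0.0192%) and 2 lower (0.0192%). Dbp, a clock output transcription factor, had 65.4, 59.4, 19.3 and 101 at 48 h and 337, 367, 509 and 448 at 36 h, a change of -2.32 ± 0.32 (adjusted p = 0.000153). Hsd17b2, which inactivates oestrogens and androgens, had 950.3, 449, 219.7 and 1164 at 48 h and 2546, 3702, 4639 and 4537 at 36 h, a change of -2.62 ± 0.47 (adjusted p = 0.00917). Both were lower on every 48 h array. Hhex, a homeobox factor of liver development, had 514, 1106, 1460.5 and 1094 at 48 h and 420.1, 316, 340.3 and 372 at 36 h, a change of 1.37 ± 0.22 (adjusted p = 0.00235). Shisa7 was dim, with 51.6, 62.1, 127 and 40.7 at 48 h and 11, 6.21, 7.70 and 10.1 at 36 h, a change of 1.26 ± 0.25 (adjusted p = 0.0432). The Dbp call held without any 1 array. The calls ended for Hsd17b2 without any 1 of 48 h replicates 2 and 3 and 36 h replicates 3 and 4 (adjusted p = 0.0604 to 0.144), for Hhex without 48 h replicate 3 (adjusted p = 0.0620), and for Shisa7 without any 1 of 48 h replicates 1, 2 and 3 and 36 h replicates 1, 2, 3 and 4 (adjusted p = 0.0568 to 0.329). The count was 3 without 48 h replicate 1 or 2, 1 without 48 h replicate 3, 2 without 36 h replicate 3 or 4, and 0 with either spike-in class alone. Against controls, Hhex at 48 h had a change of 0.87 ± 0.22 (adjusted p = 0.0228), a call that ended without any 1 of 48 h replicates 2, 3 and 4 and control replicate 2 (adjusted p = 0.0666 to 0.135). Dbp, Hsd17b2 and Shisa7 did not pass against controls, with changes of -1.02 ± 0.32, -0.63 ± 0.47 and 0.61 ± 0.25, although Dbp passed without control replicate 3 (adjusted p = 0.00977).

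Against the 72 h arrays 1 probe set (0.0063%) passed, 1 gene among 10411 (0.00961%), and 883 probe sets (5.57%) had an unadjusted p under 0.05. It was Ifi27l2b, an interferon-inducible gene, with 1621, 1488, 4009 and 2398 at 48 h and 716, 642, 633 and 312 at 72 h, a change of 1.94 ± 0.31 (adjusted p = 0.00339). Every 48 h array lay above every 72 h array, and the call ended without 72 h replicate 4 (adjusted p = 0.0932). The count was 4 without 48 h replicate 2, 2 without 48 h replicate 3, and 0 with either spike-in class alone. Its controls stood at 3896, 3489.7, 5441 and 4272, and the change of 48 h from control, -0.93 ± 0.31, did not pass (adjusted p = 0.109). It passed in 5 other settings, namely quantile normalization, low spike-in arrays, array weights, without 48 h replicate 3, and without 48 h replicates 3 and 4 together (adjusted p = 0.0333 to 0.0416).

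Several large responders were followed through the course. The changes share the same 4 controls and are given side by side. Gpt stood at 1.07, 1.70, 1.91, 2.29, 2.57, 4.14, 3.72, 3.79, 3.70 and 3.53 above control at 6, 10, 13, 18, 24, 36, 48, 72, 96 and 168 h. Sds at those times stood at 4.39, 2.84, -0.02, 0.19, -0.27, 3.93, 3.59, 2.95, 2.40 and 2.47. Its 13, 18 and 24 h values were near control, between higher early and late ones. Lpin1 had 3.78, 2.36, 1.03, 0.51, 0.63, 2.22, 2.84, 3.11, 2.60 and 3.36, again lowest at 18 and 24 h. A2m had 4.14, 4.92, 4.84, 4.96, 5.17, 4.76, 3.45, 2.10, 3.03 and 4.78, so its 48 h value lay between a high 36 h and a lower 72 h one. Among the falls, Serpina7 had -0.86, -1.39, -2.96, -2.84, -2.59, -3.22, -2.96, -4.13, -4.67 and -4.57. Igfbp2 had -0.24, -0.81, -1.02, -0.51, -1.81, -2.28, -2.38, -3.44, -3.52 and -3.93, and Ephx1 had 0.15, -0.22, -0.45, -0.48, -1.09, -1.39, -1.42, -1.83, -2.04 and -2.87. In both the 168 h value was lower than that of 48 h. Of these genes, limma's test of 48 h against 24 h passed for Sds and Lpin1, and that against 36 h or 72 h passed for none.

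**Figure D5:**
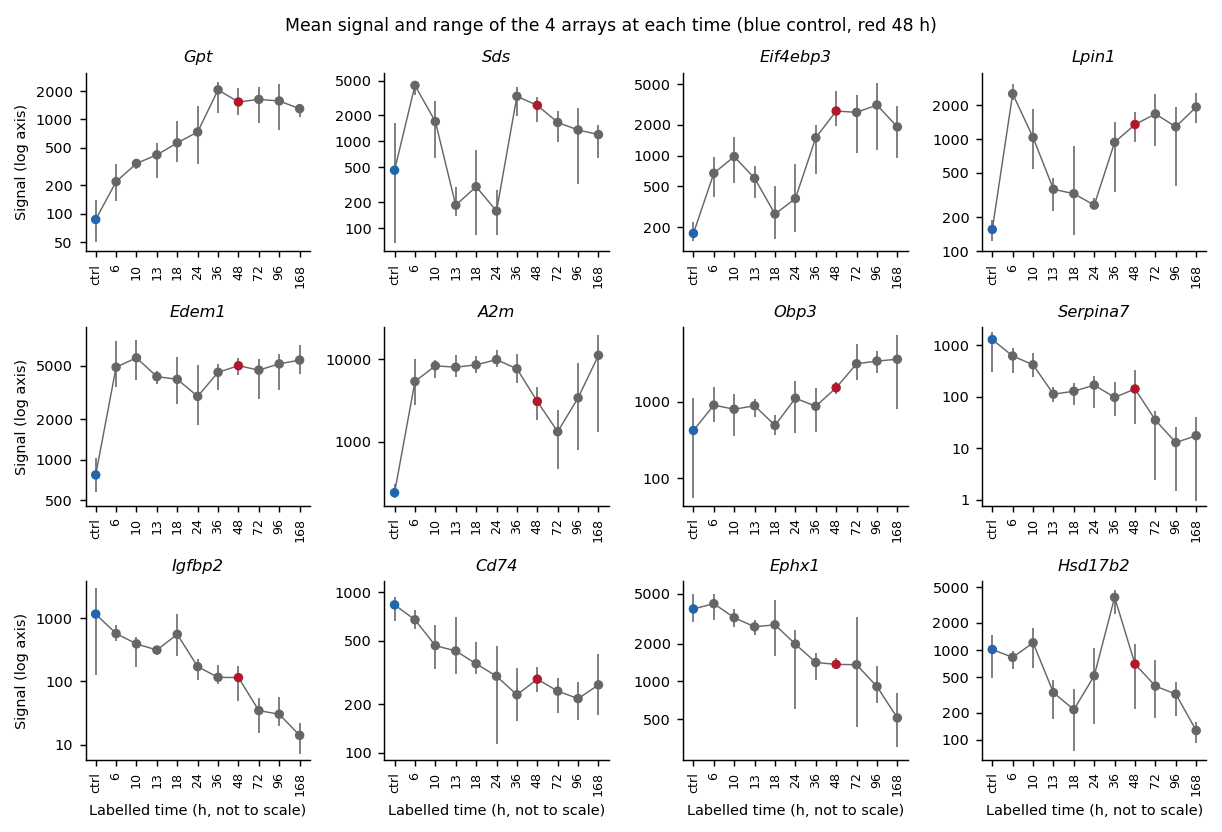
Points are the mean signal of 4 arrays and lines their range, on log axes, for controls (blue), 48 h (red) and the other labelled times of the course. Sds and Lpin1 dip around 18 and 24 h before their 48 h level, while Gpt climbs to 36 h and Igfbp2 and Ephx1 go on downward to 168 h.

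The shorter course, on another array design, has its own group labelled 48 h, with 3 arrays, and its own 4 controls. There 13 of 8740 probe sets (0.149%) passed, and 552 (6.32%) had an unadjusted p under 0.05. The courses were scaled apart, so levels are not compared and the difference between courses was not tested. Of the 28 largest responders 20 were measured on that design, 9 with a change of the same sign, and 1 passed. That gene was Ccnd1, with 287, 284 and 312 at 48 h and 961, 1058, 970.5 and 720.3 in controls of the shorter course, a change of -1.54 ± 0.34 (adjusted p = 0.0458). The groups did not overlap, and 0 probe sets of that course passed without 48 h replicate 1 or without control replicate 1 or 3, and 1 did without 48 h replicate 3. Gpt had 549, 499 and 169.8 at 48 h and 654, 259, 602 and 546 in controls, a change of -0.39 ± 0.80 (adjusted p = 0.991). Sds had 4677, 176 and 525 at 48 h and 372, 2009, 4543 and 424 in controls, a change of -0.49 ± 1.07 (adjusted p = 0.991). The groups overlapped in both genes, and neither passed. A2m had 9381, 4945 and 6989 at 48 h and 1010.2, 2699, 1540.1 and 4291 in controls, a change of 1.72 ± 0.46 (adjusted p = 0.162). Every 48 h array lay above every control, short of the threshold. Obp3 had 85.3, 458 and 41.6 at 48 h and 2828, 399, 892 and 1792 in controls, a change of -2.89 ± 0.73 (adjusted p = 0.105). Tat had 7241, 2549.6 and 5612 at 48 h and 3341, 9713, 8588 and 4209 in controls, a change of -0.32 ± 0.32 (adjusted p = 0.953). Beside these, the longer course gave 3.72 ± 0.34 for Gpt, 3.59 ± 0.61 for Sds, 3.45 ± 0.57 for A2m, 2.53 ± 0.57 for Obp3 and 1.32 ± 0.34 for Tat.

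The 28 largest responders of the longer course were picked from the same 8 arrays that the other settings reuse, so kept signs were likely beforehand. Of these 28, 21 kept their call without any 1 of the 8 arrays, where the other long-course arrays still entered the spread. All 28 kept their sign in every setting tried. With the spread taken from the 8 arrays alone, 15 of the 28 passed. Rises were then 0 in the bile acid, gluconeogenesis and growth-arrest lists, and 1 in the acute-phase list. Without 48 h replicates 3 and 4 together, 17 of the 28 passed, and the smallest change in size was 1.09. With only the arrays of low spike-in signal 22 of the 28 passed, and with only those of high signal, where 2 arrays at 48 h met 1 control, 2 of the 28 did. In that last setting the smallest change was -0.28, in Igfbp2, and 7 of the 28 changes were smaller by a factor of more than 1.5, namely those of Bhmt, Obp3, Serpina7, Igfbp2, Egr1, Gsta3 and Pdk4.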

How the data were processed

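What the authors deposited is an intensity on a linear scale, 1 for each probe set of an array, on 2 Affymetrix array designs. The sources used here give neither the scanner software nor the probe summary. The deposited scaling, a 2% trimmed mean of about 150 in the 44 arrays of the longer course, was kept, and 1 array of the 47 in the shorter course was multiplied to the common scale. Affymetrix control probe sets were left out. Linear models of log2(signal + 32) came from limma (version 3.58.1, under R 4.3.3) and took in all 44 arrays (47 for the shorter course), 1 mean per group, with moderated variances that follow signal level and Benjamini-Hochberg adjustment over all probe sets, without a filter on level. The threshold was an adjusted p under 0.05. The code was tested on simulated data. Platform annotation gave 1 symbol to 12783 probe sets, several to 312 and none to 2771, and a gene stands for its brightest probe set.

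Named genes are Tat, Nr3c1, the 14 largest rises and 14 largest falls past the threshold, the 3 largest passing members of each of 27 pathway and 10 marker lists, and up to 4 per direction against 24, 36 and 72 h. Other list members are named as counted. Members, lists and rules were chosen with earlier results of these data known. The alternatives tried are given in the closing section. Same-numbered arrays of 48 h and control were checked for pairing by their deviations from the group means, with correlations of 0.01, 0.10, -0.19 and 0.06, so the numbers were not used as pairs.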

Additional observations from a re-analysis of the deposited data

Results flagged for a closer look

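In the 4 arrays of a group, 1 array stood apart where its gap to the nearest other as a share of the group's range exceeded Dixon's critical value for 4 arrays. This was tested in 154 groups of arrays of named genes, 13 of which passed. Chance alone passes about 1 in 20 where values are normally spread. These were linear signals of genes picked on the same arrays, so the 13 cannot be set against that rate.

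At 48 h, replicate 3 stood above the other 48 h arrays in Ces2c (3896), Slc37a4 (2713) and Irf1 (145). Among controls, replicate 1 stood above the others in Sds (1640.5), Got1 (1929) and Ccl6 (1466). Control replicate 2 stood above the others in Cavin3 (5399), Creld2 (1718), Pdk4 (1010.0) and Tmed3 (299), and below them in Bhlhe41 (3.82) and Clec4f (522). Control replicate 4 stood above the others in A2m (311) and in the summed signal of hepatocyte markers (113491). That array was also the control of high spike-in signal.

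By limma, 12 of the named genes differed between 48 h and 24 h arrays. Up to 4 genes per direction were named because they passed against 24, 36 or 72 h, so those genes were bound to appear here. The 48 h arrays were higher in Sds by 3.87, Eif4ebp3 by 2.91, Got1 by 2.37, Lpin1 by 2.21, Zfp354a by 2.04 (adjusted p = 0.0400) and Ass1 by 1.37 (adjusted p = 0.0415), on the log2 scale. The change was -1.86 in Tubb2a, -1.66 in Creld2, -1.22 in Fkbp11, -1.20 in Tmed3, -0.91 in Eef1g (adjusted p = 0.0393) and -0.79 in Gclc (adjusted p = 0.0356). Between 48 h and 36 h arrays it was 1.37 in Hhex, 1.26 in Shisa7, -2.62 in Hsd17b2 and -2.32 in Dbp, and between 48 h and 72 h arrays 1.94 in Ifi27l2b.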

How the results depend on the processing

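Counts are of probe sets past the threshold, and the cause of each move was not tested. For 48 h against control (391) the count was 56 with only the 8 arrays, 158 with only arrays of low spike-in signal, 2 with only those of high signal, 119 without both 48 h arrays of high acinar sums, and 193 to 450 without 1 array. For 48 h against 24 h (118) it was 2 with low and 1 with high spike-in arrays, and 39 to 112 without 1 array. Against 36 h (5) it was 3 with median centring, 0 with low and 0 with high spike-in arrays, and 1 to 5 without 1 array. Against 72 h (1) it was 0 with low and 0 with high spike-in arrays, and 0 to 4 without 1 array. In the shorter course (13) it was 1 with quantile normalization, 7 with median centring, and 0 to 19 without 1 array. Other settings were also tried for 48 h against control in the longer course. The count was 382 with an added constant of 16 and 414 with 64. It was 445 when the dimmest 30% were dropped, and 403 when the moderated variances did not follow signal level. It was 400 with quantile normalization, 328 with median centring, 273 with array weights and 440 with the spike-in level as a block. The settings with only high spike-in arrays or without both high-acinar arrays were chosen after seeing the data.

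Nr3c1 (-0.04) turned positive with quantile normalization (0.0027), the spike-in level as a block (0.0853), low (0.25) or high (0.0573) spike-in arrays, array weights (0.0664), and without both high-acinar arrays (0.44), and was -0.24 to 0.27 without 1 array. Fkbp11 against control was 0.0645 with high spike-in arrays. Over named genes and settings, 1410 values kept direction and side of the threshold, 409 lost the call, 6 gained it and 10 turned sign.

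The numbers are not free of technical differences, since replicate 4 had high spike-in signals in all 11 groups. Deviations of same-numbered 48 h and control arrays from their group means correlated by -0.19 to 0.10. Control replicate 4 correlated by 0.28 with 48 h replicate 3, also of high spike-in signal, and by -0.275 with 48 h replicate 2. The labels tie no number to an animal or day. With the replicate number as a block the counts were 456 against control, 158 against 24 h, 5 against 36 h, 1 against 72 h and 13 in the shorter course. The number of arrays limits the precision, and dim genes have compressed changes.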
